A study of Mus musculus with 21 samples.

Results

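The 38 genes described here are antiviral interferon-stimulated genes, picked by symbol from the 64050 symbols of the deposited count table. They were measured by RNA sequencing in 21 libraries of mouse skin from a transplantation model in which immune cells of the donor turn on the recipient and the skin hardens (sclerodermatous chronic graft-versus-host disease). All 38 had counts in both sets of libraries and all 38 passed the filter on low counts. The study asked what blocking IL1RAP does to such skin. IL1RAP is a receptor chain shared by the receptors for IL-1, IL-33 and IL-36.

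All recipients were BALB/c mice, 8 weeks old, given 700 cGy of total body irradiation before a marrow graft. Allogeneic groups had B10.D2 marrow and received mCAN10, an antibody against IL1RAP (4 libraries, called anti-IL1RAP here), the isotype antibody mIgG2a LALA-PG (4 libraries, allogeneic isotype), the kinase inhibitor nintedanib (5 libraries) or water (ddH2O, 4 libraries, allogeneic water). The syngeneic group had BALB/c marrow and the isotype antibody (4 libraries). Treatment ran from day 21 and skin was taken in week 7. Antibodies were injected into the peritoneum, first at 20 mg/kg and later at 10 mg/kg. The dose of nintedanib was 50 mg/kg, and its route is uncertain because the labels give both daily dosing by mouth and injection. The allogeneic and syngeneic groups differ in donor strain as well as in disease, and every recipient, syngeneic ones included, was irradiated. The labels do not say that each library is a separate mouse, so p-values measure the spread between these libraries, which may be technical.

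The anti-IL1RAP, allogeneic isotype and syngeneic libraries (12) were counted in a first run and the nintedanib and allogeneic water libraries (9) in a second run with other gene names. Comparisons were therefore made within a run. The second run has no syngeneic group, so whether a member stayed above syngeneic skin with nintedanib was not tested. Across the runs, vehicle and counting cannot be told apart.

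Interferons are secreted proteins that switch on an antiviral state. Type I interferons bind IFNAR1 and IFNAR2, and the kinases JAK1 and TYK2 then activate the factor ISGF3, of which STAT2 and IRF9 are parts. ISGF3 binds the interferon-stimulated response element (ISRE) in the promoters of these genes, while interferon gamma acts mainly through the GAS element. In skin, the products of such genes sense viral RNA, degrade it, block its translation or hold virus particles at the cell surface.

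The ISRE core was searched as GAAA, any 2 bases and GAAA again, on both strands, overlapping matches included, in promoters of 300 bases (250 before the transcription start and 50 after it) from RefSeq, build GRCm38.p6. Of the 38 genes, 28 had a promoter entry, and 13 of these 28 (46.4%) held the core. Of all 27025 genes with a promoter entry, whether or not they were counted here, 3.99% held it. The GAS core, searched as TTCNNNGAA, was in 6 of 28 (21.4%), against 9.55%. The 250 bases upstream of 5 members are shown. Oas3, Isg15, Ifi44 and Ifit1 had the largest changes in allogeneic isotype skin, and Ifit3 holds cores but was not called in any comparison. Cores are in capitals and each sequence reads 5′ to 3′ on the strand of its gene.
Isg15: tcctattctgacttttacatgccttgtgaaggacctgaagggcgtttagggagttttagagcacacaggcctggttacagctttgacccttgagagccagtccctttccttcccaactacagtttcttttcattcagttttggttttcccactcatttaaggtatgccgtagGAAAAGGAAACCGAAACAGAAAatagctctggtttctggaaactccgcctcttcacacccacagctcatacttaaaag
Oas3: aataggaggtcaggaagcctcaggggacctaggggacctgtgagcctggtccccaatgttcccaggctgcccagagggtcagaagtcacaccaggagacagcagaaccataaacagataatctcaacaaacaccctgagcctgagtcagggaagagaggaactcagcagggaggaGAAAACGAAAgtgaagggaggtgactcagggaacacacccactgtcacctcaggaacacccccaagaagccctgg
Ifit1: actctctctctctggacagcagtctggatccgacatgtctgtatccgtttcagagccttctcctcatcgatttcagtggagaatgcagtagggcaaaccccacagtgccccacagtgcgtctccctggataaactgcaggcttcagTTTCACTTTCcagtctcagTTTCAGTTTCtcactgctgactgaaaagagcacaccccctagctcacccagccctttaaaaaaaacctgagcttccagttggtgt
Ifit3: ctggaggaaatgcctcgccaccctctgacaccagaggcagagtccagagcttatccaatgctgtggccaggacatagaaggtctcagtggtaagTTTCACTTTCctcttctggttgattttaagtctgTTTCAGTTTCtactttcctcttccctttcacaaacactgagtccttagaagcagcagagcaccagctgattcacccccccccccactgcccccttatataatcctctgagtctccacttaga
Ifi44: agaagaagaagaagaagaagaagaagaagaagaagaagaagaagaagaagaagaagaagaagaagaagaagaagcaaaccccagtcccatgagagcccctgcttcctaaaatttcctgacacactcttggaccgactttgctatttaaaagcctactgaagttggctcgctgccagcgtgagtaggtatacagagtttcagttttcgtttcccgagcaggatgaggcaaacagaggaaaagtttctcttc
The windows are chr4:156200819-156201068 (minus strand) for Isg15, chr5:120777660-120777909 (minus) for Oas3, chr19:34640639-34640888 (plus) for Ifit1, chr19:34583279-34583528 (plus) for Ifit3 and chr3:151749911-151750160 (minus) for Ifi44. Isg15 holds 3 overlapping matches in a run that begins 78 bases before its start, and Oas3 holds 1 at 75 bases. Ifit1 and Ifit3 hold 2 each, on the other strand. Ifi44 holds none of these exact letters, which says nothing about whether ISGF3 acts there. A match is a description of the letters and not a shown binding site.

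**Figure D1:**
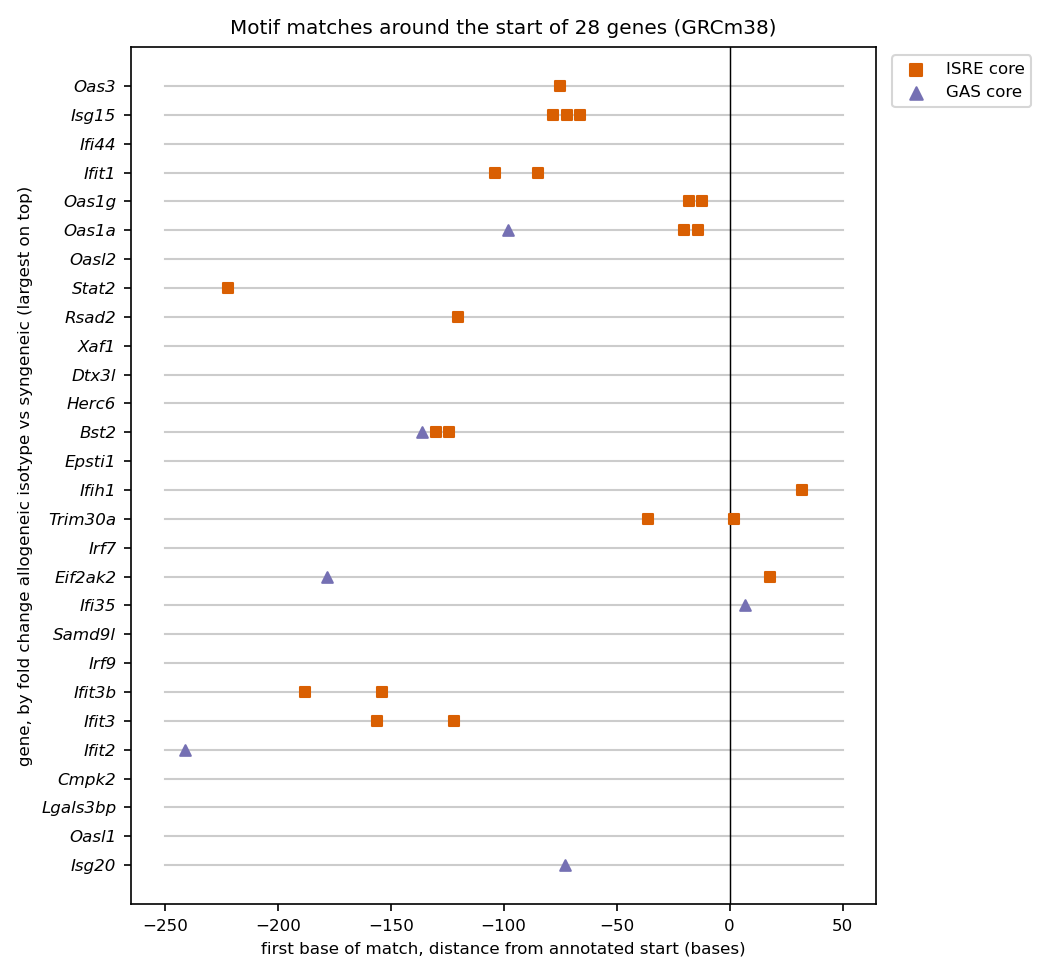
Positions of the ISRE and GAS cores, as distance from the transcription start in bases, in the promoters of the 28 genes with an entry. The ISRE core is in 13 genes and the GAS core in 6.

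Library totals ranged from 17130264 to 32899212 counts. Krt5, Krt14, Krt10, Col1a1, Col1a2 and Pdgfra, markers of keratinocytes and fibroblasts, had counts in all 21 libraries. Nintedanib libraries 1 and 3 stood apart, with mean log2 CPM (counts scaled to the library total) of 11 hair follicle genes of 10.4 and 8.72, against 3.94 in allogeneic isotype library 1, 3.31 in water library 3 and -1.42 to 1.12 in the others. Skeletal muscle genes took 0.0013% of counts in allogeneic isotype library 1 and 0.411% to 5.17% elsewhere. Levels below are CPM scaled with TMM factors, given library by library in the order of their numbers. A log2 fold change is given ± SE with a Benjamini-Hochberg p over the 20462 genes tested in edgeR's quasi-likelihood fit of all 21 libraries, and a gene is called at an adjusted p under 0.05. The genes tested include symbols with counts in only 1 run, which cannot be called in a comparison within the other run. They lower the shares of all genes given below and draw the medians of all genes towards 0. In bulk skin, fewer cells of a type and less RNA per cell cannot be told apart.

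In allogeneic isotype skin against syngeneic skin, most of the antiviral genes were higher. The ubiquitin-like protein gene Isg15 averaged 193 ± 20.6 CPM in allogeneic isotype skin and 11.9 ± 5.42 CPM in syngeneic skin (SD, n = 4 each), and Oas3, an enzyme that senses double-stranded RNA, averaged 83.3 ± 9.99 CPM in allogeneic isotype and 3.86 ± 1.53 CPM in syngeneic skin. In all, 31 of 38 rose and 0 fell, where 13.8% of all genes tested were called higher and 8.80% lower. The levels did not overlap between the groups for 32 members, all higher, against 16.8% of all genes. The median log2 fold change of the 38 was 2.17 and that of all genes was 0. Leaving out any of the 8 libraries in turn gave 30 to 34 members higher. Of the 31 called genes, 30 were called in all 18 other settings tried, and Cmpk2, a mitochondrial nucleotide kinase, in 11.

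With anti-IL1RAP, 9 of the 38 fell below allogeneic isotype skin and 0 rose, where 5.19% of all genes were called lower and 5.58% higher. Those that fell were Isg15, Oas1g, Oas2, Oas3, Mx1, Eif2ak2, Parp9, Ifi44 and Ifi35. Fold changes were negative for 34 of 38, with a median of -0.81 against 0 for all genes. The levels did not overlap for 23 members that were lower (10.9% of all genes) and for 1 that was higher (12.2%), Isg20, which was close to a tie. The count of members that fell was 3 without allogeneic isotype library 3, 3 without anti-IL1RAP library 2, 3 without library 3 and 4 without library 4, and it was 21 in a fit of the first run alone. Isg15 and Eif2ak2 were called in all 18 other settings, Oas2 in 17, Ifi35 in 16, Mx1 in 13, Ifi44 in 12, Parp9 in 9, Oas3 in 8 and Oas1g in 7.

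Against syngeneic skin, all 38 genes had positive fold changes with anti-IL1RAP (37 with RLE size factors, where Ifi27l2a was below 0), and 10 were called higher and 0 lower, where 0.777% of all genes were called higher, 0.0342% lower and 0.811% in either direction. They were Irf9, Stat2, Isg15, Usp18, Oas1a, Oas1b, Oas1g, Oas3, Rtp4 and Epsti1. Isg15, Oas1g and Oas3 both fell with the antibody and stayed above syngeneic skin. The levels did not overlap for 27 members, all higher (10.8% of all genes, with 8.05% lower), and the median fold change was 1.37 against 0.03 for all genes. The count depended on which libraries entered. It was 6, 2, 1 and 0 without syngeneic library 1, 2, 3 and 4, and 1, 6 and 5 without anti-IL1RAP library 1, 2 and 4, and it was 25 in a fit of the first run alone. Oas1a was called in 16 of 18 other settings, Isg15 in 15, Stat2 in 13, Oas3 in 12, Rtp4 and Epsti1 in 11, Usp18 and Oas1g in 9, Irf9 in 7 and Oas1b in 6.

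With nintedanib, 8 of the 38 fell below allogeneic water skin and 0 rose, where 3.76% of all genes were called lower, 5.56% higher and 9.31% in either direction. They were Stat2, Isg15, Oas1b, Oas2, Oas3, Bst2, Parp14 and Ifi35. Fold changes were negative for 37 of 38, with a median of -0.90 against 0 for all genes. The levels did not overlap for 8 members, all lower (3.20% of all genes, with 4.75% higher): Irf7, Stat2, Usp18, Oas2, Oas3, Oasl2, Bst2 and Ifi35. These calls rest on a spread estimated with the first run. A fit of the 9 libraries of the second run alone gave the same median, -0.90, and called 0 of the 38, the lowest adjusted p being 0.0557 for Oas2, with 94 genes called in all. Without nintedanib libraries 1 and 3, a setting added after the data were seen, 4 members fell and the median was -0.59. The count was 4 without water library 1 and 3 without each of water libraries 2, 3 and 4. It was 8, 3, 4, 16 and 12 without nintedanib library 1, 2, 3, 4 and 5. Without nintedanib library 1 the median was -0.69. Stat2, Oas2 and Ifi35 were called in 18 of 22 other settings, Oas3 in 10, Parp14 in 9, Isg15 in 6 and Oas1b and Bst2 in 5.

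The difference between the treatment effects, each against the control of its own run, was tested directly. It was called for 0 of 38 members and 0 of 20462 genes in edgeR, where 2495 genes (12.2%) had an unadjusted p under 0.05, and for 0 members and 364 genes in DESeq2. Isg15, Oas2, Oas3 and Ifi35 fell with both treatments, Oas1g, Mx1, Eif2ak2, Parp9 and Ifi44 were called with anti-IL1RAP alone and Stat2, Oas1b, Bst2 and Parp14 with nintedanib alone. No member is thereby shown to respond to either treatment alone. The 95% intervals of the difference ran from -2.38 at the lowest to 2.37 at the highest, and 3 of 38 lay within 1 log2 unit of 0.

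**Figure D2:**
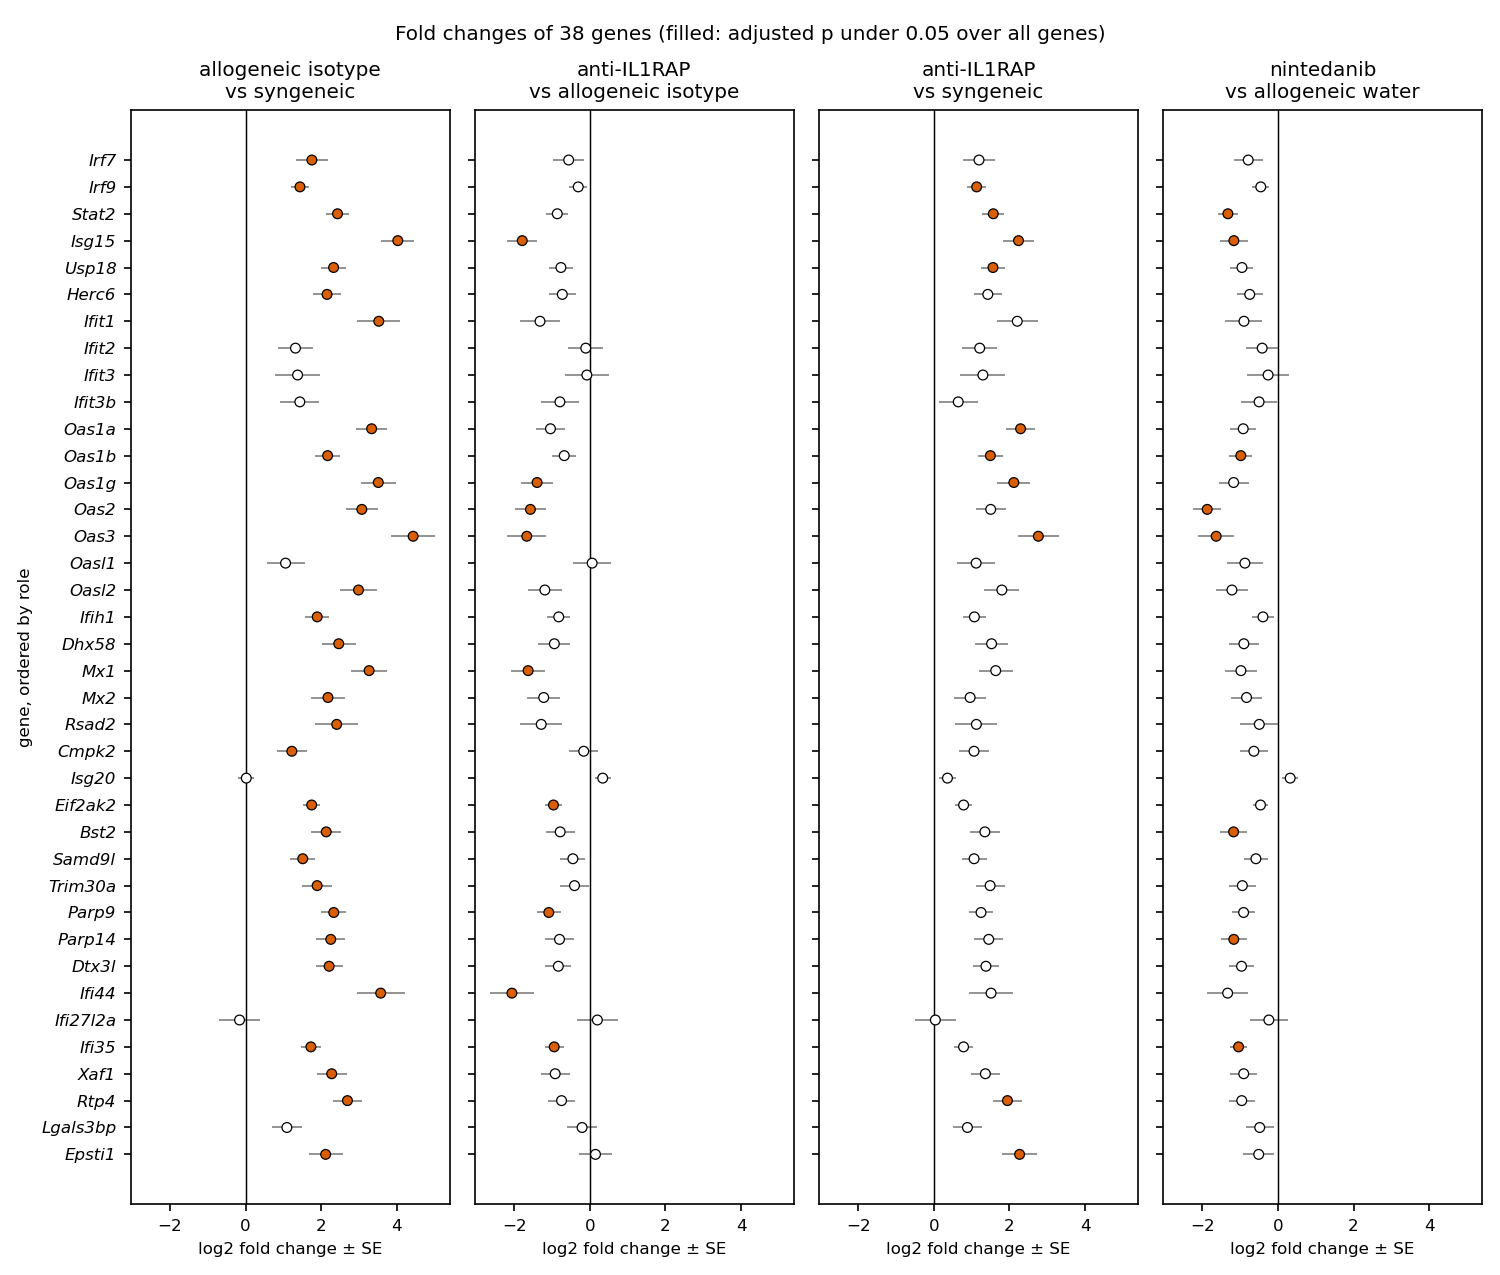
Log2 fold change ± SE of the 38 genes in the comparisons of allogeneic isotype with syngeneic skin, anti-IL1RAP with allogeneic isotype, anti-IL1RAP with syngeneic and nintedanib with allogeneic water; filled points have an adjusted p under 0.05. With anti-IL1RAP 34 genes lie left of 0 against allogeneic isotype skin while all 38 lie right of 0 against syngeneic skin (37 with RLE size factors).

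**Figure D3:**
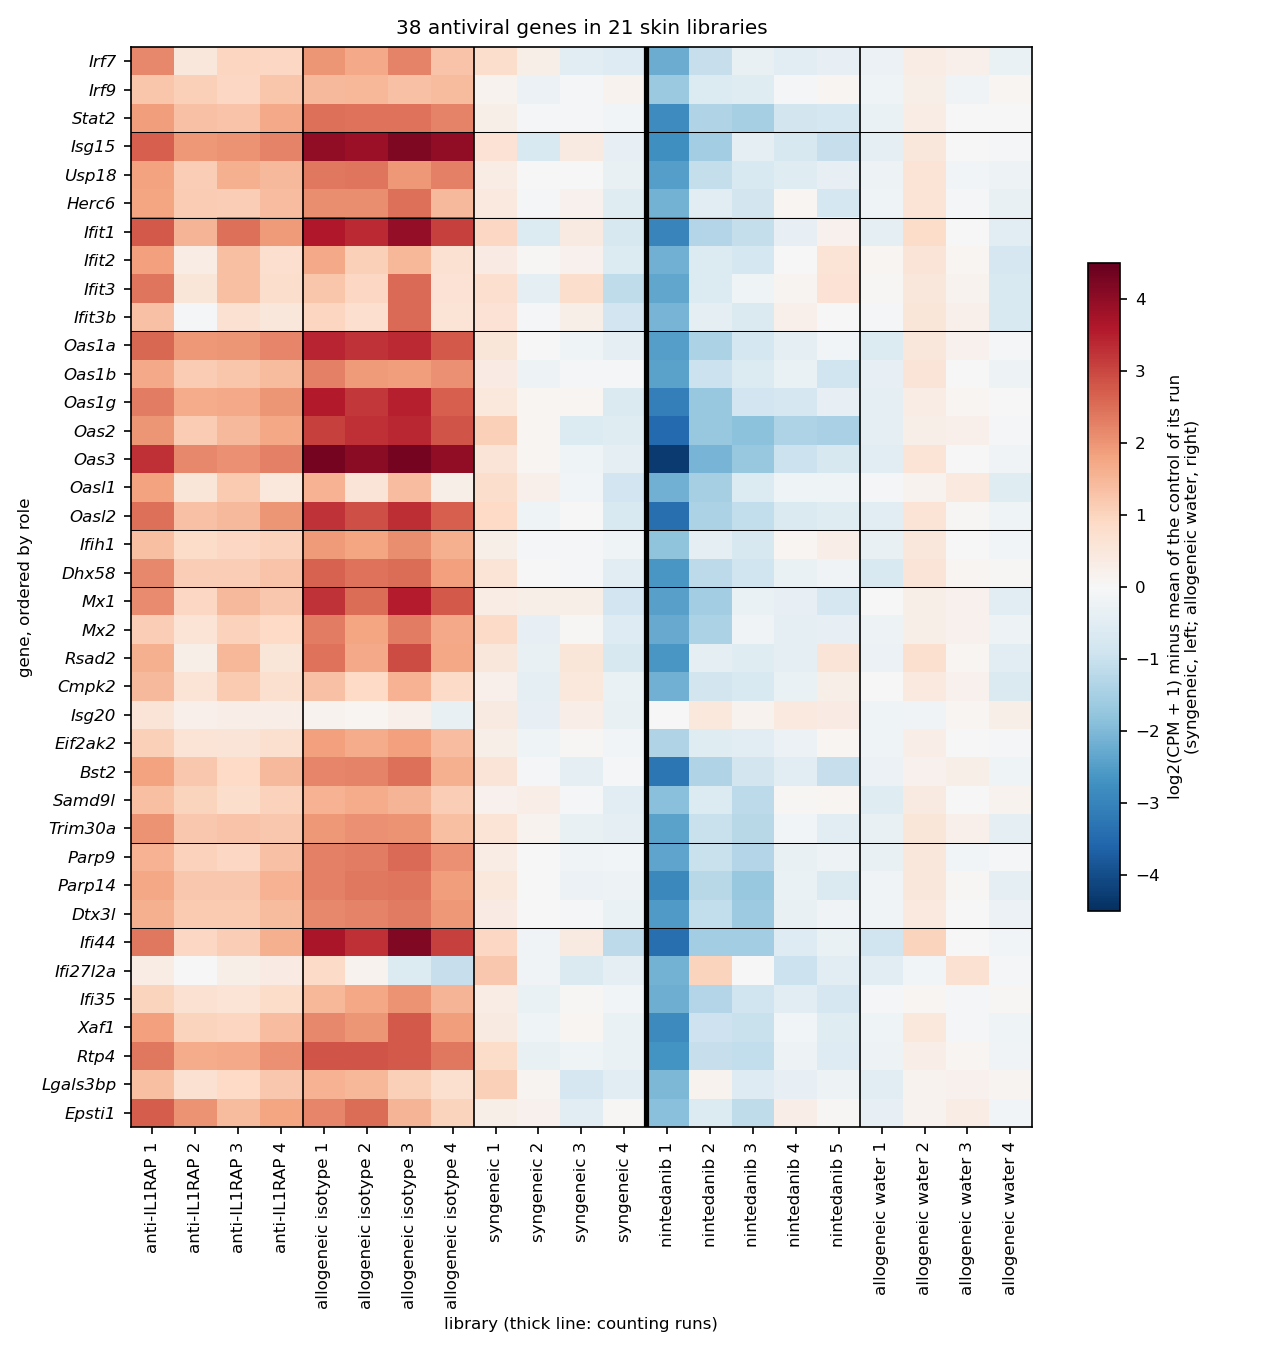
Level of each of the 38 genes in each of the 21 libraries, as log2(CPM + 1) minus the mean of the syngeneic group (first run) or of the allogeneic water group (second run). Nintedanib library 1 is the lowest of its run and lies below every water library for 37 of 38 genes. The share of all genes for which it does so was not computed.

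Irf7, Irf9 and Stat2 encode transcription factors of the pathway, Stat2 and Irf9 as parts of ISGF3 and Irf7 as the factor that amplifies interferon production. Stat2 had 157, 106, 104 and 138 CPM in the anti-IL1RAP libraries, 239, 236, 236 and 203 CPM in the allogeneic isotype libraries and 51.4, 40.7, 39.2 and 38.5 CPM in the syngeneic libraries. The anti-IL1RAP libraries lay between the other groups without overlap. In the second run Stat2 had 31.7, 89.2, 80.3, 129 and 133 CPM with nintedanib and 186, 292, 225 and 224 CPM with water, again without overlap, with nintedanib library 1 the lowest by far. The log2 fold change of Stat2 was 2.43 ± 0.30 (adjusted p = 5.85e-05) in allogeneic isotype against syngeneic skin. With anti-IL1RAP it was -0.86 ± 0.29 against allogeneic isotype (adjusted p = 0.0661) and 1.57 ± 0.30 against syngeneic skin (adjusted p = 0.0159), and with nintedanib -1.32 ± 0.27 (adjusted p = 0.00723). Irf9 averaged 123 ± 12.3 CPM with anti-IL1RAP, 152 ± 7.53 in allogeneic isotype and 56.0 ± 7.96 in syngeneic skin (SD, n = 4 each), and it was called above syngeneic skin with the antibody (log2 fold change 1.13 ± 0.25, adjusted p = 0.0346). All 3 factors rose in allogeneic isotype skin, where 13.8% of all genes were called higher. None was called lower with anti-IL1RAP, which for 3 genes is near the share of all genes (5.19%). Irf7 in anti-IL1RAP library 1 (204 CPM) was within the range of allogeneic isotype skin.

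Isg15 is attached to other proteins by a ligase chain that includes Herc6, and Usp18 removes it and also damps the receptor. Isg15 had 76.3, 44.9, 48.2 and 54.8 CPM in the anti-IL1RAP libraries, 188, 173, 222 and 189.8 CPM in the allogeneic isotype libraries and 17.9, 6.39, 14.9 and 8.31 CPM in the syngeneic libraries. The 3 groups did not overlap, and the antibody group lay between the others. Isg15 values of the second run were 11.8, 28.5, 63.8, 51.5 and 41.3 CPM with nintedanib and 62.3, 124, 85.6 and 81.8 CPM with water, and nintedanib library 3 overlapped the lowest water library. The log2 fold change of Isg15 was 4.02 ± 0.43 (adjusted p = 2.36e-05) in allogeneic isotype against syngeneic skin. It was -1.78 ± 0.39 with anti-IL1RAP against allogeneic isotype (adjusted p = 0.00699), 2.24 ± 0.40 against syngeneic (adjusted p = 0.0113) and -1.17 ± 0.36 with nintedanib (adjusted p = 0.0492). Usp18 averaged 37.3 ± 7.26 CPM with anti-IL1RAP, 63.2 ± 8.47 in allogeneic isotype and 12.6 ± 2.65 in syngeneic skin (SD, n = 4 each). It was called above syngeneic skin with the antibody (log2 fold change 1.56 ± 0.33, adjusted p = 0.0287). Herc6 was called in allogeneic isotype against syngeneic skin alone (2.15 ± 0.38, adjusted p = 0.000678).

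The IFIT proteins bind viral RNA and hold back its translation. Ifit1 had 54.5, 22.7, 45.0 and 30.6 CPM in the anti-IL1RAP libraries, 99.7, 84.3, 127 and 69.3 CPM in the allogeneic isotype libraries and 14.6, 4.46, 10.0 and 3.99 CPM in the syngeneic libraries, with no overlap among the 3 groups. For Ifit1 the second run gave 9.13, 31.1, 37.5, 60.7 and 89.97 CPM with nintedanib and 60.02, 142, 80.7 and 57.4 CPM with water, where nintedanib libraries 4 and 5 lay within the water range. Ifit1 was the 1 family member of 4 that rose in allogeneic isotype skin (log2 fold change 3.52 ± 0.57, adjusted p = 0.00038), where 13.8% of all genes were called higher. Its log2 fold change was -1.31 ± 0.53 with anti-IL1RAP against allogeneic isotype (adjusted p = 0.122) and -0.90 ± 0.49 with nintedanib (adjusted p = 0.266). Ifit2, Ifit3 and Ifit3b had fold changes of 1.32, 1.37 and 1.43 in allogeneic isotype against syngeneic skin, with adjusted p of 0.0504, 0.106 and 0.054. With anti-IL1RAP Ifit2 and Ifit3 were at -0.10 (95% interval -1.07 to 0.86) and -0.08 (-1.30 to 1.15) against allogeneic isotype skin. No IFIT gene was called with either treatment, where 5.19% of all genes were called lower with anti-IL1RAP and 3.76% with nintedanib. Ifit3 and Ifit3b may share reads, since 31.7% of the 100-base stretches of Ifit3 exons also occur in Ifit3b, and 27.4% of those of Ifit3b in Ifit3. Their separate values are uncertain.

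The active OAS enzymes sense double-stranded RNA and make short signal molecules that lead to RNA decay, while the OAS-like Oasl1 and Oasl2 have other roles. Oas3 had 44.8, 19.8, 18.6 and 21.8 CPM in the anti-IL1RAP libraries, 91.5, 76.7, 92.1 and 72.8 CPM in the allogeneic isotype libraries and 5.97, 3.95, 3.09 and 2.45 CPM in the syngeneic libraries. Oas2 had 55.1, 30.5, 37.6 and 46.3 CPM in the anti-IL1RAP libraries, 119, 137, 146 and 99.9 CPM in the allogeneic isotype libraries and 28.7, 13.9, 8.24 and 8.80 CPM in the syngeneic libraries. For both genes the 3 groups did not overlap. In the second run Oas3 had 3.73, 21.3, 27.7, 47.7 and 56.3 CPM with nintedanib and 67.3, 145, 93.6 and 83.0 CPM with water. Oas2 had 11.4, 42.5, 38.3, 52.7 and 50.8 CPM with nintedanib and 107, 168, 165 and 132 CPM with water. Both were below every water library in all 5 nintedanib libraries, and library 1 was the lowest. The log2 fold change of Oas3 was 4.43 ± 0.58 (adjusted p = 8.55e-05) in allogeneic isotype against syngeneic skin. With anti-IL1RAP it was -1.66 ± 0.52 against allogeneic isotype (adjusted p = 0.0447) and 2.76 ± 0.55 against syngeneic skin (adjusted p = 0.0219), and with nintedanib -1.63 ± 0.48 (adjusted p = 0.0393). The fold change of Oas2 was -1.57 ± 0.40 with anti-IL1RAP against allogeneic isotype (adjusted p = 0.0156), 1.504 ± 0.40 against syngeneic (adjusted p = 0.0892) and -1.87 ± 0.37 with nintedanib (adjusted p = 0.00591).

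Oasl2, the OAS family member with the highest mean CPM, had 171, 76.8, 85.3 and 122 CPM in the anti-IL1RAP libraries, 296, 231, 309 and 199.6 CPM in the allogeneic isotype libraries and 56.5, 25.8, 30.3 and 18.2 CPM in the syngeneic libraries. Oasl2 values of the second run were 22.2, 88.6, 109.9, 153 and 163 CPM with nintedanib and 172, 367, 249 and 211 CPM with water. No groups overlapped in either run, yet neither treatment was called, with log2 fold changes of -1.19 ± 0.45 with anti-IL1RAP against allogeneic isotype (adjusted p = 0.103) and -1.22 ± 0.42 with nintedanib against water (adjusted p = 0.0742). Of the 7 family members, 6 rose in allogeneic isotype skin, 3 fell with anti-IL1RAP, 4 stayed above syngeneic skin with it and 3 fell with nintedanib. The shares of all genes were 13.8%, 5.19%, 0.777% and 3.76%, in that order. Oas1a averaged 37.9 ± 8.40 CPM with anti-IL1RAP, 77.9 ± 14.8 in allogeneic isotype and 7.73 ± 2.61 in syngeneic skin (SD, n = 4 each), and its fold change with the antibody was 2.29 ± 0.39 against syngeneic (adjusted p = 0.00889). Oas1a and Oas1g share sequence (40.9% and 31.3% of their 100-base exon stretches), so they may share reads and their separate values are uncertain. Oasl1 was the exception in the family, with a fold change of 1.06 ± 0.50 in allogeneic isotype against syngeneic skin (adjusted p = 0.141) and overlapping groups.

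**Figure D4:**
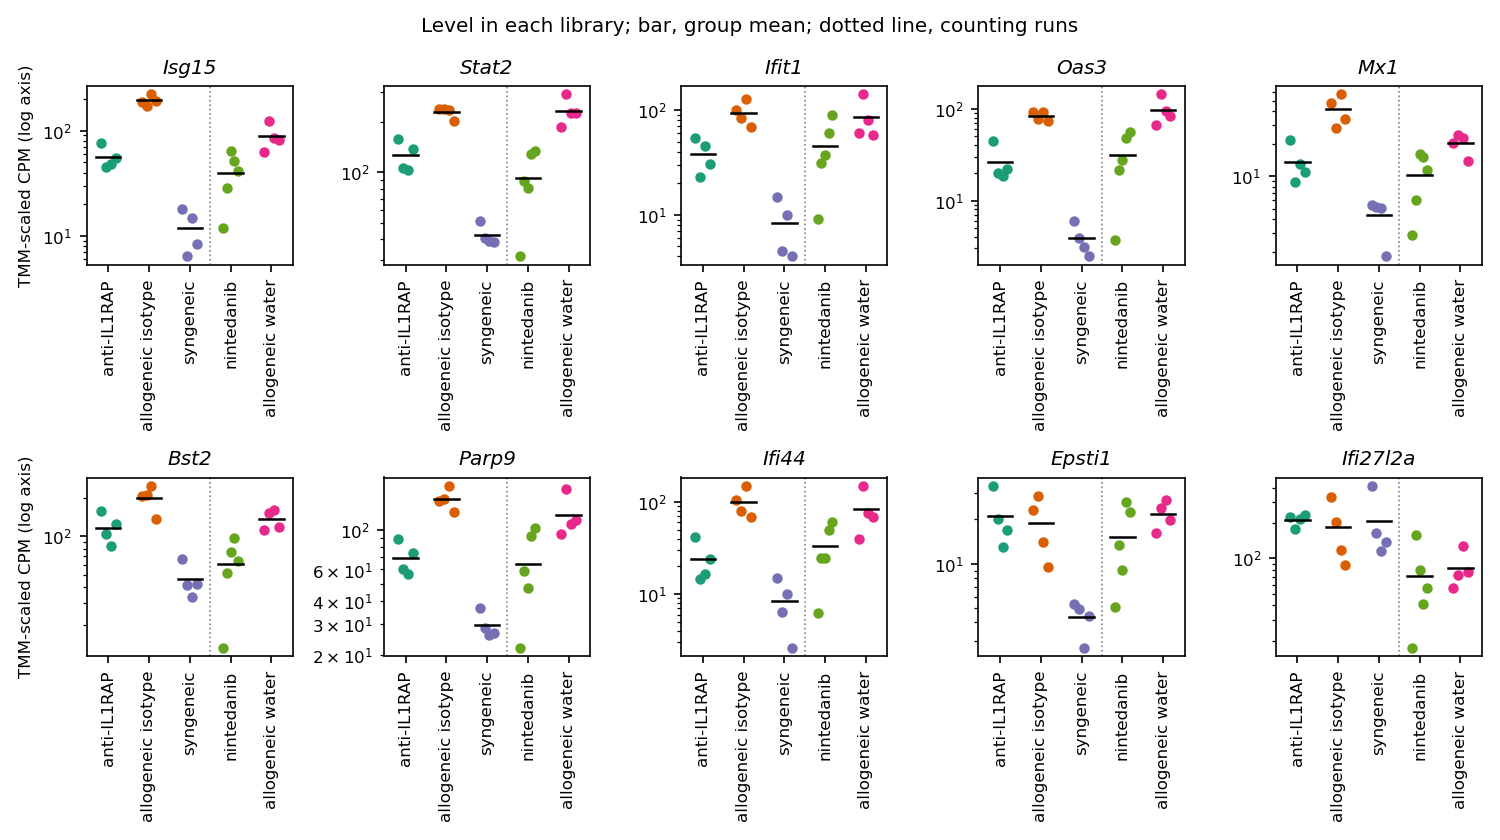
TMM-scaled CPM (log axis) in every library for 10 of the genes, with anti-IL1RAP, allogeneic isotype and syngeneic libraries of the first run and nintedanib and allogeneic water libraries of the second; bars are group means. Isg15, Stat2, Ifit1, Oas3, Mx1 and Parp9 form 3 separate levels in the first run, while Epsti1 with anti-IL1RAP overlaps allogeneic isotype skin.

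Ifih1 (MDA5) senses long double-stranded RNA in the cytoplasm, and Dhx58 (LGP2) modulates that sensing. Ifih1 had 59.0, 40.6, 43.5 and 46.5 CPM in the anti-IL1RAP libraries, 87.8, 78.0, 98.3 and 70.4 CPM in the allogeneic isotype libraries and 27.3, 21.7, 21.6 and 19.4 CPM in the syngeneic libraries. Dhx58 had 40.5, 18.9, 18.8 and 21.4 CPM in the anti-IL1RAP libraries, 57.6, 49.3, 51.6 and 32.1 CPM in the allogeneic isotype libraries and 13.2, 8.11, 7.84 and 5.43 CPM in the syngeneic libraries. The antibody group was above syngeneic skin for both genes and below allogeneic isotype skin for Ifih1, but Dhx58 in anti-IL1RAP library 1 exceeded the lowest allogeneic isotype library. For Ifih1 the second run gave 20.3, 56.3, 44.8, 78.3 and 91.0 CPM with nintedanib and 58.4, 107, 72.8 and 67.5 CPM with water. Dhx58 had 4.68, 14.7, 17.96, 27.8 and 30.7 CPM with nintedanib and 20.7, 51.1, 36.3 and 35.0 CPM with water. For both genes, nintedanib libraries 4 and 5 lay within the water range and the other 3 below it. Both rose in allogeneic isotype skin, with log2 fold changes of 1.89 ± 0.32 (adjusted p = 0.00046) for Ifih1 and 2.46 ± 0.45 (adjusted p = 0.000905) for Dhx58. Neither was called with a treatment or against syngeneic skin with the antibody. Of all genes, 13.8% were called higher in allogeneic isotype skin, 5.19% lower with anti-IL1RAP and 3.76% lower with nintedanib. The fold changes with anti-IL1RAP against allogeneic isotype were -0.82 ± 0.31 for Ifih1 and -0.94 ± 0.43 for Dhx58, with adjusted p of 0.0977 and 0.182.

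Bst2 (tetherin) holds virus particles at the cell surface and Mx1 is a GTPase that blocks influenza viruses. Bst2 had 158, 103, 83.3 and 124 CPM in the anti-IL1RAP libraries, 207, 212, 250.3 and 137 CPM in the allogeneic isotype libraries and 66.9, 41.7, 33.3 and 42.3 CPM in the syngeneic libraries. Mx1 had 21.5, 8.76, 13.0 and 10.9 CPM in the anti-IL1RAP libraries, 48.0, 27.8, 57.8 and 33.7 CPM in the allogeneic isotype libraries and 5.39, 5.15, 5.10 and 1.80 CPM in the syngeneic libraries. Mx1 separated the 3 groups, while Bst2 in anti-IL1RAP library 1 lay within the allogeneic isotype range. In the second run Bst2 had 13.3, 52.0, 75.4, 98.0 and 64.6 CPM with nintedanib and 112, 154, 162 and 119 CPM with water, without overlap. Mx1 had 2.84, 6.04, 15.9, 15.1 and 11.4 CPM with nintedanib and 20.3, 24.1, 22.8 and 13.7 CPM with water, and nintedanib libraries 3 and 4 exceeded the lowest water library. Mx1 fell with anti-IL1RAP (log2 fold change -1.63 ± 0.44, adjusted p = 0.0233), and with nintedanib it was at -0.98 ± 0.41 (adjusted p = 0.141). Bst2 fell with nintedanib (-1.17 ± 0.36, adjusted p = 0.0494), and with anti-IL1RAP it was at -0.78 ± 0.39 (adjusted p = 0.222). Many inbred mouse strains carry defective Mx1 alleles, and a transcript level does not show a working protein.

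Of the 9 other effectors, 8 rose in allogeneic isotype skin, 2 fell with anti-IL1RAP, 0 were called above syngeneic skin with it and 1 fell with nintedanib. The shares of all genes were 13.8%, 5.19%, 0.777% and 3.76%, in that order. Eif2ak2 (PKR), the kinase that stops translation on sensing double-stranded RNA, averaged 32.3 ± 5.32 CPM with anti-IL1RAP, 62.8 ± 9.18 in allogeneic isotype and 18.7 ± 2.84 in syngeneic skin (SD, n = 4 each). It fell with the antibody (-0.96 ± 0.22, adjusted p = 0.00911), and with nintedanib its fold change was -0.46 ± 0.21 (adjusted p = 0.168). Isg20, an RNA exonuclease, was among the few with positive values. It had 10.8, 8.32, 8.80 and 8.65 CPM in the anti-IL1RAP libraries, 7.75, 7.43, 8.32 and 5.25 CPM in the allogeneic isotype libraries and 9.37, 5.06, 8.73 and 5.30 CPM in the syngeneic libraries. Its antibody libraries overlapped syngeneic skin and lay above all allogeneic isotype libraries, but close to a tie. The nearest values were 8.3204 CPM in anti-IL1RAP library 2 and 8.3182 CPM in allogeneic isotype library 3. It was not called in any comparison, with fold changes of 0.02 ± 0.22 in allogeneic isotype against syngeneic (below 0 with RLE size factors), 0.34 ± 0.22 with anti-IL1RAP against allogeneic isotype (95% interval -0.11 to 0.80) and 0.32 ± 0.21 with nintedanib against water (-0.11 to 0.76), the 1 positive value of the 38 there. Rsad2 (viperin), which makes a chain-terminating nucleotide, averaged 10.6 ± 5.14 CPM with anti-IL1RAP, 25.9 ± 11.4 in allogeneic isotype and 4.88 ± 2.42 in syngeneic skin (SD, n = 4 each) and was called in allogeneic isotype against syngeneic skin alone (2.41 ± 0.57, adjusted p = 0.00561). Mx2, a GTPase related to Mx1, averaged 8.06 ± 1.37 CPM with anti-IL1RAP, 18.7 ± 4.29 in allogeneic isotype and 4.14 ± 2.48 in syngeneic skin (SD, n = 4 each). It rose in allogeneic isotype skin (2.18 ± 0.44, adjusted p = 0.00201) and was at -1.22 with anti-IL1RAP against allogeneic isotype (adjusted p = 0.0782), without overlap. Samd9l, which holds back virus replication, rose in allogeneic isotype skin (1.51, adjusted p = 0.00362), as did Trim30a, a member of the TRIM family (1.89, adjusted p = 0.00215). Neither was called with a treatment, with fold changes of -0.45 for Samd9l and -0.40 for Trim30a with anti-IL1RAP and -0.58 for Samd9l and -0.94 for Trim30a with nintedanib, and their libraries overlapped.

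Parp9 and Dtx3l form a complex that modifies histones and viral proteins, and Parp14 is a related ADP-ribosyltransferase. Parp9 had 88.6, 60.2, 56.8 and 73.8 CPM in the anti-IL1RAP libraries, 144, 147, 176 and 125 CPM in the allogeneic isotype libraries and 36.8, 28.5, 25.9 and 26.5 CPM in the syngeneic libraries. Parp14 had 109, 75.0, 73.9 and 95.3 CPM in the anti-IL1RAP libraries, 157, 166, 172 and 120.0 CPM in the allogeneic isotype libraries and 44.2, 32.0, 26.1 and 26.7 CPM in the syngeneic libraries. The 3 groups did not overlap for either gene. Parp9 values of the second run were 21.9, 59.0, 47.2, 92.5 and 102 CPM with nintedanib and 94.2, 168, 108 and 113 CPM with water. Parp14 had 18.2, 59.8, 43.5, 116 and 91.2 CPM with nintedanib and 127, 205, 149 and 109 CPM with water. The highest nintedanib library exceeded the lowest water library for each. Parp9 fell with anti-IL1RAP (-1.08 ± 0.32, adjusted p = 0.0375) and was at -0.91 ± 0.30 with nintedanib (adjusted p = 0.0646). Parp14 fell with nintedanib (-1.17 ± 0.35, adjusted p = 0.0425) and was at -0.80 ± 0.37 with anti-IL1RAP (adjusted p = 0.189). All 3 genes rose in allogeneic isotype skin, where 13.8% of all genes were called higher. Parp9 and Dtx3l overlap on opposite strands over 9.40% and 8.00% of their exon bases, and the library kit does not mark strand.

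Among the remaining members, Ifi44 is a cytoplasmic antiviral protein, Lgals3bp a secreted galectin-binding glycoprotein and Epsti1 a protein found in epithelial and immune cells. Ifi44 had 41.5, 14.6, 16.6 and 23.9 CPM in the anti-IL1RAP libraries, 104, 80.5, 149 and 68.9 CPM in the allogeneic isotype libraries and 14.9, 6.39, 9.94 and 2.62 CPM in the syngeneic libraries. Its antibody group lay below allogeneic isotype skin, and anti-IL1RAP library 2 was within the syngeneic range. For Ifi44 the second run gave 6.24, 24.8, 24.5, 49.9 and 60.7 CPM with nintedanib and 39.7, 149.7, 75.7 and 68.9 CPM with water, with overlap. Its log2 fold change was -2.06 ± 0.59 with anti-IL1RAP against allogeneic isotype (adjusted p = 0.0311), the most negative of the 38 there, 1.51 ± 0.59 against syngeneic (adjusted p = 0.264) and -1.33 ± 0.54 with nintedanib (adjusted p = 0.126). Epsti1 had 33.9, 20.2, 13.0 and 16.9 CPM in the anti-IL1RAP libraries, 23.1, 28.8, 14.1 and 9.50 CPM in the allogeneic isotype libraries and 5.31, 4.98, 2.69 and 4.41 CPM in the syngeneic libraries. The antibody and allogeneic isotype groups overlapped and both lay above syngeneic skin. The fold change of Epsti1 with anti-IL1RAP was 0.15 ± 0.43 against allogeneic isotype (95% interval -0.75 to 1.05) and 2.27 ± 0.45 against syngeneic (adjusted p = 0.0229). Second-run values of Epsti1 were 5.07, 13.5, 9.05, 26.4 and 22.3 CPM with nintedanib and 16.1, 23.9, 27.1 and 19.7 CPM with water, with overlap.

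Lgals3bp had 283, 180.1, 209 and 255 CPM in the anti-IL1RAP libraries, 332, 316, 236 and 183 CPM in the allogeneic isotype libraries and 235, 119, 65.7 and 80.1 CPM in the syngeneic libraries. All 3 groups overlapped, and the fold change in allogeneic isotype against syngeneic skin was 1.09 ± 0.39 (adjusted p = 0.0519). In the second run it had 61.6, 285, 169.9, 197 and 218 CPM with nintedanib and 184, 286, 292 and 278 CPM with water, with overlap. Ifi35, which binds other interferon-induced proteins, averaged 56.9 ± 6.72 CPM with anti-IL1RAP, 109 ± 19.1 in allogeneic isotype and 33.004 ± 6.39 in syngeneic skin (SD, n = 4 each). It averaged 39.7 ± 15.8 CPM with nintedanib (SD, n = 5) and 81.6 ± 4.72 CPM with water (SD, n = 4), and fell with both treatments (-0.94 ± 0.25 with anti-IL1RAP, adjusted p = 0.0206, and -1.04 ± 0.24 with nintedanib, adjusted p = 0.0116). Rtp4, a protein that hinders viral replication, stayed above syngeneic skin with the antibody (1.95 ± 0.38, adjusted p = 0.0204). Xaf1, a partner of the cell-death inhibitor XIAP, rose in allogeneic isotype skin (2.28 ± 0.40, adjusted p = 0.000703) and was at -0.91 with anti-IL1RAP (adjusted p = 0.145) and -0.90 with nintedanib (adjusted p = 0.119). Ifi27l2a, a mitochondrial or nuclear membrane protein, averaged 214 ± 25.7 CPM with anti-IL1RAP, 186 ± 109.9 in allogeneic isotype and 208 ± 140.1 in syngeneic skin (SD, n = 4 each) and was not called anywhere. Per kilobase of exon it was the highest of the 38 in all of these groups, at 462 CPM per kb with anti-IL1RAP, 401 in allogeneic isotype and 449 in syngeneic skin. Herc6, Ifi35 and Rtp4 overlap other annotated genes over more than 10% of their exon bases, so part of their counts may belong to those.

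Members with an ISRE core in the promoter had larger median changes than those without, given here as a description with no test. The medians over the 13 with and the 15 without a core were 2.41 and 1.73 in allogeneic isotype against syngeneic skin. With anti-IL1RAP they were -0.96 and -0.45 against allogeneic isotype and 1.49 and 1.195 against syngeneic, and with nintedanib -0.92 and -0.75. Ifit3 holds 2 cores in the sequence shown and was not called anywhere, while Ifi44 holds none and had the most negative change with anti-IL1RAP.

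The level of the set differed between libraries of a group. Over the 38 genes, anti-IL1RAP libraries 1 to 4 lay below every allogeneic isotype library for 23, 34, 29 and 31 genes and above every syngeneic library for 37, 27, 35 and 33. Anti-IL1RAP library 1 was the highest of its group for 37 of 38. Nintedanib libraries 1 to 5 lay below every water library for 37, 31, 31, 15 and 17 genes, and library 1 was the lowest of its group for 38 of 38. Nintedanib libraries 4 and 5 thus lay nearer to water skin than libraries 1, 2 and 3. For these counts by library the shares of all genes were not computed. They are therefore not shown to be particular to these genes.

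Upstream in the pathway, interferon gamma was the 1 of 11 listed interferon genes that passed the filter. Ifng had 2.20, 0.949, 0.191 and 0.595 CPM in the anti-IL1RAP libraries, 2.98, 2.76, 2.71 and 2.25 CPM in the allogeneic isotype libraries and 0.0780, 0.214, 0 and 0.131 CPM in the syngeneic libraries. It rose in allogeneic isotype against syngeneic skin (log2 fold change 4.57 ± 0.83, adjusted p = 0.000884). It was at -1.43 ± 0.68 with anti-IL1RAP against allogeneic isotype (adjusted p = 0.202), 3.14 ± 0.82 against syngeneic (adjusted p = 0.0844) and -1.37 ± 0.65 with nintedanib against water (adjusted p = 0.192). The type I gene Ifnb1 had 1 count in all anti-IL1RAP libraries together, 1 in all allogeneic isotype libraries and 0 in each other group. Ifna1, Ifna2, Ifna4, Ifna5, Ifne and Ifnz had 0 counts in every library, so they were not detectable at this depth. Ifnk had 1 count with anti-IL1RAP, 3 in allogeneic isotype and 1 in syngeneic skin. Ifnl3 had 1 with anti-IL1RAP, 3 in allogeneic isotype and 6 in water skin, and Ifnl2 had 10 in allogeneic isotype and 4 in water skin, with 0 in every other group.

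Of 15 receptor and signalling genes, 6 rose in allogeneic isotype skin, 1 fell and 0 rose with anti-IL1RAP, and 3 fell with nintedanib. The shares of all genes were 13.8%, 5.19%, 5.58% and 3.76%, in that order. The 1 of 15 that fell with anti-IL1RAP (6.67%) was near the share of all genes. Stat3, a factor of interleukin signalling, rose in allogeneic isotype skin (0.92) and fell with both treatments (-0.77 with anti-IL1RAP and -0.91 with nintedanib). The kinase gene Tyk2 (-0.54) and Irf5 (-0.75) fell with nintedanib. Irf1 (2.28) and Jak2 (0.61) rose in allogeneic isotype skin. The receptor genes Ifnar1 and Ifnar2 were not called anywhere, with fold changes of 0.09 (95% interval -0.25 to 0.42) and 0.17 (-0.45 to 0.80) with anti-IL1RAP against allogeneic isotype, and -0.19 (-0.50 to 0.12) and -0.34 (-0.93 to 0.25) with nintedanib.

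Of 12 sensor and adaptor genes measured in a run, 6 rose in allogeneic isotype skin, 2 fell with anti-IL1RAP, 1 stayed above syngeneic skin with it and 4 fell with nintedanib. The shares of all genes were 13.8%, 5.19%, 0.777% and 3.76%, in that order, and they apply to the feedback list below too. The DNA sensor gene Cgas changed by 1.49 in allogeneic isotype against syngeneic skin, -0.86 with anti-IL1RAP and -0.86 with nintedanib, and the adaptor gene Myd88, which also carries IL-1 receptor signals, by 1.23 in allogeneic isotype against syngeneic skin, -0.63 with anti-IL1RAP and -0.91 with nintedanib, all called. Zbp1, a sensor of left-handed nucleic acids, rose in allogeneic isotype skin (3.26) and stayed above syngeneic skin with the antibody (2.49). Tbk1 rose in allogeneic isotype skin (0.75), and Tbk1 (-0.40) and Sting1 (-1.31) fell with nintedanib. All 10 feedback and ISG15-conjugation genes, Herc6 among them, rose in allogeneic isotype skin, 3 fell with anti-IL1RAP, 1 stayed above syngeneic skin and 5 fell with nintedanib. The RNA-editing enzyme Adar was at 1.55 in allogeneic isotype against syngeneic, -0.63 with anti-IL1RAP against allogeneic isotype, 0.91 with it against syngeneic and -0.70 with nintedanib, all called. Trim25 fell with anti-IL1RAP (-0.69) and with nintedanib (-0.94). Socs3, a feedback inhibitor, fell with nintedanib (-1.82). The nintedanib calls of these lists come from the same fit of all 21 libraries.

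Markers of several other cell types also changed, some in the direction of the set and some in the other. Their part in these results was not tested. Of all genes tested, 13.8% were called higher and 8.80% lower in allogeneic isotype skin. With anti-IL1RAP 5.58% were higher and 5.19% lower, and with nintedanib 5.56% and 3.76%. These shares apply to all the marker lists, and 0.777% were higher with the antibody against syngeneic skin. The summed level of 9 T cell genes was 35.0 to 120.0 CPM with anti-IL1RAP, 62.0 to 176 in allogeneic isotype skin, 8.76 to 19.7 in syngeneic skin, 14.0 to 129.6 with nintedanib and 54.9 to 118 with water. All 9 rose in allogeneic isotype skin and none was called with a treatment against its allogeneic control. Against syngeneic skin, 1 of the 9 was called higher with the antibody. All 9 lay above syngeneic skin there without overlap (10.8% of all genes). Over 11 macrophage and monocyte genes the sums were 862 to 1950.0 CPM with anti-IL1RAP, 1022 to 2498 in allogeneic isotype skin, 396 to 779.5 in syngeneic skin, 313 to 1653 with nintedanib and 1114 to 2219 with water. Of these 11, 7 rose in allogeneic isotype skin, 0 were called with anti-IL1RAP and 1 fell with nintedanib. Over 4 leukocyte genes the sums were 261 to 491 CPM with anti-IL1RAP, 254 to 594 in allogeneic isotype skin, 134 to 255 in syngeneic skin, 86.0 to 526 with nintedanib and 296 to 540.4 with water. Ptprc (CD45), carried by all leukocytes, was at 1.60 ± 0.48 (adjusted p = 0.0213) in allogeneic isotype against syngeneic skin, -0.08 ± 0.46 with anti-IL1RAP against allogeneic isotype, 1.52 ± 0.48 against syngeneic (adjusted p = 0.156) and -0.53 ± 0.44 with nintedanib.

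Neutrophil genes were called with both treatments. The sum of 6 of them was 15.6 to 27.9 CPM with anti-IL1RAP, 59.8 to 127 in allogeneic isotype skin, 8.93 to 23.2 in syngeneic skin, 13.4 to 36.5 with nintedanib and 49.3 to 169 with water. Of the 5 that passed the filter, 4 rose in allogeneic isotype skin, 3 fell with anti-IL1RAP, 0 were called above syngeneic skin with it and 1 fell with nintedanib. The 3 were S100a8 (-2.78), which is also in the activated keratinocyte list, S100a9 (-2.96) and the chemokine receptor gene Cxcr2 (-3.58, and -2.82 with nintedanib). Of 6 fibroblast genes, 2 fell in allogeneic isotype skin, the matrix genes Dcn (-1.79) and Dpt (-2.38). Both rose with anti-IL1RAP (1.88 for Dcn and 1.93 for Dpt), and 0 of the 6 were called against syngeneic skin with it or with nintedanib. Their sums were 2646 to 7464 CPM with anti-IL1RAP, 631 to 3179.5 in allogeneic isotype skin, 3348 to 4878 in syngeneic skin, 2514 to 7691 with nintedanib and 1332 to 2722 with water. Of 8 keratinocyte genes 3 rose in allogeneic isotype skin, 2 fell with anti-IL1RAP and 2 fell with nintedanib. Of 5 endothelial genes 2 fell in allogeneic isotype skin, and of 5 adipocyte genes 1 fell there and 1 rose with anti-IL1RAP. Of 4 B and plasma cell genes that passed the filter, 2 rose and 1 fell in allogeneic isotype skin and 0 were called with a treatment.

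Most activated keratinocyte genes moved in the direction of the set. The sum of 7 activated keratinocyte genes was 1167 to 1661 CPM with anti-IL1RAP, 4295 to 9268 in allogeneic isotype skin, 843 to 1356 in syngeneic skin, 864 to 2797 with nintedanib and 2298 to 11247 with water. Of the 7, 6 rose in allogeneic isotype skin, 6 fell with anti-IL1RAP and 5 fell with nintedanib, and 0 were called above syngeneic skin with the antibody. Plasmacytoid dendritic cells are the classic source of type I interferon. Of 8 of their genes, Bst2 among them, 4 rose and 2 fell in allogeneic isotype skin, 1 fell with anti-IL1RAP, 0 were called above syngeneic skin with it, and 1 rose and 1 fell with nintedanib. Bst2, Ccr9 (1.72), Spib (1.91) and Irf8 (1.53) were the ones that rose in allogeneic isotype skin, while the surface gene Siglech (-5.27) and Tcf4 (-0.48) fell. Ccr9 fell with anti-IL1RAP (-1.95), and with nintedanib Tcf4 rose (0.61) and Bst2 fell. The summed level of the 8 was 247 to 348 CPM with anti-IL1RAP, 321 to 834 in allogeneic isotype skin, 367 to 455 in syngeneic skin, 107 to 332 with nintedanib and 249.6 to 446 with water. Cox6a2, which skeletal muscle also makes, took much of that sum, with 489 CPM in allogeneic isotype library 3 and 0.367 CPM in library 1. The muscle actin gene Acta1 had 16672 CPM in library 3 and 0.183 CPM in library 1. The sum is thus no measure of these cells alone. In the second run, 6 of 11 hair follicle genes that passed the filter were called higher with nintedanib, but the groups overlapped for all 11. Nintedanib libraries 1 and 3 alone stood far above the water libraries. The sum of the 12 listed genes had a median of 27.2 CPM and a highest value of 55826 CPM with nintedanib. With water these were 36.9 and 368 CPM. Every cell type marker list named here had counts for all its genes in each group.

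**Figure D5:**
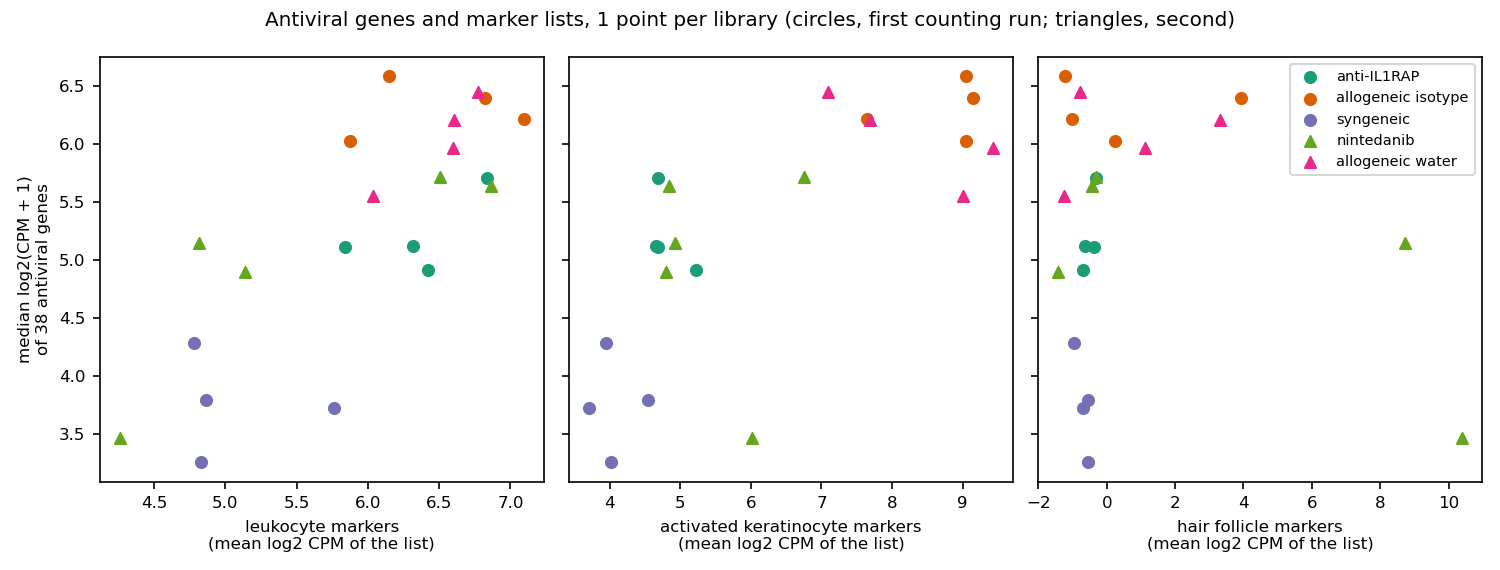
Median log2(CPM + 1) of the 38 genes in each library (vertical axis) against the mean log2 CPM of leukocyte, activated keratinocyte and hair follicle genes (horizontal axes), with circles for the first counting run and triangles for the second. Nintedanib library 1 has the lowest median of its run, 3.47, and the highest hair follicle value, 10.4.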

How the data were processed

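RNA from pieces of skin 3 mm in diameter was sequenced after poly-A selection, with a library kit that keeps no strand information. Per the submitters' processing notes, the authors used STAR, featureCounts, Trimmomatic and FastQC with the GRCm39 genome. Tool versions and the annotation: not given in the sources used here. Deposited values are whole-number read counts per gene symbol, which the authors had not normalized. Counts were tested with edgeR 4.0.16 (R 4.3.3): filterByExpr at a minimum count of 10, TMM factors, then glmQLFit and glmQLFTest over all 21 libraries with 1 mean for each group, which share 1 estimate of the spread. SE is the log2 fold change divided by the root of F. CPM values are TMM-scaled. The calculation was tested on simulated counts. Libraries were not paired by replicate number. No 2 libraries of a group agreed within sampling noise, the lowest chi-square per degree of freedom being 15.7.

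Members, role groups and lists were chosen with earlier results of these data known. Values in every library are given, per role group, for the gene of highest mean CPM and the largest called change of each comparison, up to 3 genes. Isg20 was singled out after its values were seen. Pathway genes named are those called, up to 4 of lowest p per comparison and list, with Ifnar1, Ifnar2, Ifnb1 and Ifng in any case. Some pathway genes are not reported here. Ddx58 had counts in the first run and Rigi, its other symbol, in the second. Promoters come from RefSeq (GRCm38.p6) and exon overlaps from GENCODE on GRCm38, not the build of the counts. Alternatives were RLE size factors, no filter, DESeq2 1.42.0, fewer libraries or symbols, replicate blocks, muscle or hair follicle covariates, sequencing lane notes and leaving out each library. Figures were drawn with matplotlib 3.10.9.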

Additional observations from a re-analysis of the deposited data

Results flagged for a closer look

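Of 190 gene and group combinations, 14 had a library far from the rest of its group by Dixon's criterion, where chance gives about 1 in 20. With anti-IL1RAP, library 1 stood high for Irf7 (204 CPM), Oas3 (44.8 CPM), Dhx58 (40.5 CPM) and Trim30a (53.0 CPM). In allogeneic isotype skin, library 4 was low for Stat2 (203 CPM) and Trim30a (33.1 CPM), and library 3 was high for Ifit3b (63.6 CPM). In syngeneic skin, library 1 was high for Stat2 (51.4 CPM), Ifi27l2a (416 CPM) and Rtp4 (28.8 CPM), and library 4 was low for Mx1 (1.80 CPM). In water skin, library 2 was high for Usp18 (69.9 CPM) and Xaf1 (108 CPM), and library 1 was low for Lgals3bp (184 CPM). The nintedanib group had none by this criterion.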

How the results depend on the processing

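No called result reversed direction in any setting tried. In this section, counts of genes are of all genes called in either direction, while counts of members are of the direction named. Of the members called in allogeneic isotype against syngeneic skin, 30 were called in all 18 other settings. Of those that fell with anti-IL1RAP 2 were, and of those above syngeneic skin with it and of those that fell with nintedanib 0 were. Leaving out each library in turn gave 1284 to 2168 genes called and 3 to 8 members lower with anti-IL1RAP against allogeneic isotype, and 31 to 152 genes and 0 to 7 members higher with it against syngeneic skin (0 without syngeneic library 4). It gave 782 to 2794 genes and 3 to 16 members lower with nintedanib (16 without nintedanib library 4), 0 to 7 genes for the difference of the treatment effects, and 3580 to 4953 genes and 30 to 34 members higher in allogeneic isotype against syngeneic skin. The cause of these shifts was not tested.

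For anti-IL1RAP against allogeneic isotype, a fit of the counting run alone called 3664 genes in either direction and 21 members lower. Against syngeneic skin it called 505 genes in either direction and 25 members higher. For nintedanib it called 94 genes in either direction and 0 members lower. The main fit called 2204, 166 and 1906 genes in either direction in these comparisons, in that order. A fit of the groups compared alone gave 21 members lower with anti-IL1RAP, 2131 genes and 27 members higher against syngeneic, and again 94 genes and 0 members for nintedanib, where 3171 genes had an unadjusted p under 0.05. DESeq2 gave 14 members lower with anti-IL1RAP, 674 genes and 24 members higher against syngeneic, 3046 genes and 14 members lower with nintedanib, and 364 genes for the difference. Without the filter, 1190 genes and 4 members were called with nintedanib. With symbols of both runs alone, 106 genes were called for anti-IL1RAP against syngeneic. A skeletal muscle covariate gave 108 genes there and 5 members lower with nintedanib. A hair follicle covariate gave 15 members lower with anti-IL1RAP, 355 genes and 21 members higher against syngeneic, 4 members lower with nintedanib and 1 gene for the difference. Nintedanib and water libraries with a note on 2 sequencing lanes gave 0 genes and 0 members in edgeR (1450 genes at an unadjusted p under 0.05), and those without the note 0 genes and 0 members (860). Without nintedanib libraries 1 and 3, added after the data were seen, 1225 genes and 4 members were called. Several member counts in this section stand without a count of all genes. Calls across all genes moved between settings too, so shifts in member counts are not shown to be particular to these genes.

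Same-numbered libraries were not shown to be pairs. Over all genes tested, correlations of their deviations from the group means ran from -0.228 to 0.347 (title numbers, 3 of 16 best matched to their own number). For description numbers the correlations ran from -0.354 to 0.265 (3 of 14). This check cannot exclude that some libraries were handled as pairs. A replicate block by title number gave 98 genes and 5 members higher for anti-IL1RAP against syngeneic, 6 members lower against allogeneic isotype and 8 lower with nintedanib, with nintedanib library 5 in a block of its own and so without weight. A block by description number gave 60 genes and 1 member higher against syngeneic, 4 members lower with anti-IL1RAP against allogeneic isotype and 3 lower with nintedanib.

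With 4 or 5 libraries a group, intervals of the difference between the treatments were 1.26 to 3.37 log2 units wide. All 38 genes passed the filter on low counts, while most of the listed interferon genes were at or near 0 counts.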
